A study of Homo sapiens with 15 samples.

Results

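Integrins are receptors of the cell surface that bind extracellular matrix proteins or other cells, and each is built from 1 alpha and 1 beta subunit that leave the endoplasmic reticulum only as a pair. The pair decides the ligand. ITGB1 (beta1) joins many alpha subunits and gives fibronectin, laminin and collagen receptors, ITGAV (alphav) joins several beta subunits and gives receptors for ligands with an RGD motif such as vitronectin, and ITGA2B (alphaIIb) joins only ITGB3 (beta3) and is known as the fibrinogen receptor of platelets. In epithelial and kidney cells these receptors hold the cell to its basement membrane and pass signals to the actin cytoskeleton.

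The RNA of 10 integrin subunit genes was followed, 6 alpha subunits (ITGA2B, ITGA3, ITGA5, ITGA6, ITGA7, ITGAV) and 4 beta subunits (ITGB1, ITGB3, ITGB4, ITGB5), out of 58735 genes listed in every library. They were picked by symbol with their values in these libraries already known, so their levels and differences are given as a description, without p-values. The other 16 integrin subunit genes of the 26 in the human genome are given for comparison. The cells were HEK293T, a human embryonic kidney line that carries the SV40 large T antigen. The study used such cells as supporting cells in co-culture with tumor cells under anticancer drugs, and asked which knockouts in the supporting cells change drug resistance of their neighbours. Its methods for RNA sequencing name neither tumor cells nor a drug. Each of 5 groups had 3 RNA-seq libraries that the labels call biological replicates, with RNA from 3 wells of cells by the study's methods: Non-target (labelled wild type, carrying a vector with a gRNA against no human gene) and CRISPR knockouts (CKO) of C9orf89 (now named CARD19), MAGI2, MLPH and RHBDD2. Every group, Non-target included, carried the same kind of CRISPR vector and was cloned by limiting dilution, so each is 1 clone, and the effect of a knockout and the individuality of a clone cannot be told apart. The spread between 3 libraries, and the p-values that rest on it, may be no more than that between wells of 1 clone, and all 4 comparisons with Non-target share the same 3 control libraries. Where 4 values follow each other without names, they belong to the clones in the order C9orf89, MAGI2, MLPH, RHBDD2, and Non-target comes first where there are 5.

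Between 15517856 and 19489918 fragments fell on genes in a library. Levels are in FPKM, the fragments per kilobase of exon divided by 1 factor per library, so that levels of different subunits can be set side by side. That factor was not the number of fragments on genes. RHBDD2-CKO 3 had 2060 ITGB1 fragments of 15517856 and Non-target 2 had 2012 of 15763875, but their FPKM were 21.1 and 21.6. In a fit scaled by the fragments on genes (voom), the median log2 fold change of all tested genes was 0.03, 0.02, 0.02 and 0.06. Changes of that size depend on the scaling. RNA of the targeted genes was looked at first. CARD19 was at 5.70, 7.72 and 6.27 FPKM in Non-target and at 4.34, 4.27 and 4.34 in C9orf89-CKO, but RHBDD2-CKO, at 4.52, 5.18 and 4.69, also lay under the controls. RHBDD2 was at 27.4, 38.1 and 34.9 FPKM in Non-target and at 11.2, 13.5 and 12.4 in RHBDD2-CKO, but it was also at 11.7, 13.8 and 16.0 in MAGI2-CKO. MAGI2 was at 0.119, 0.102 and 0.123 FPKM in Non-target and at 0.0899, 0.0523 and 0.0618 in MAGI2-CKO, which overlapped its level in the other clones, and MLPH was listed at 0 in all 15 libraries, so RNA gives no check of those labels. A frameshift need not lower the RNA of its gene. For protein, the paper reports loss in its HEK293T clones, by western blot for C9orf89 and RHBDD2 and by flow cytometry for MAGI2 and MLPH.

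The libraries numbered 1 stood apart in all 5 groups. The chi-square per gene of their counts against the other libraries of their own group was 14.6 to 24.9, against 2.40 to 6.54 between the libraries numbered 2 and 3. ITGA5 and ITGB5 were lowest in the library numbered 1 in each of the 5 groups. Fold changes without these libraries are therefore given where they matter.

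In Non-target the subunits fell into 3 tiers. ITGB1 led with 22.7 ± 1.23 FPKM (SD, n = 3, as for all values below). ITGAV (7.97 ± 0.196), ITGB5 (7.53 ± 0.774), ITGA5 (6.46 ± 0.965) and ITGA6 (4.52 ± 0.413) followed. ITGA7 (1.66 ± 0.123), ITGA3 (1.21 ± 0.133), ITGA2B (0.921 ± 0.106), ITGB4 (0.357 ± 0.0651) and ITGB3 (0.0454 ± 0.0269) were low. Taken over all 15 libraries, the mean of ITGB1 was above that of 88.7% of the 16175 genes that passed the filter on low values, and the mean of ITGB4 was above that of 13.9%.

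**Figure D1:**
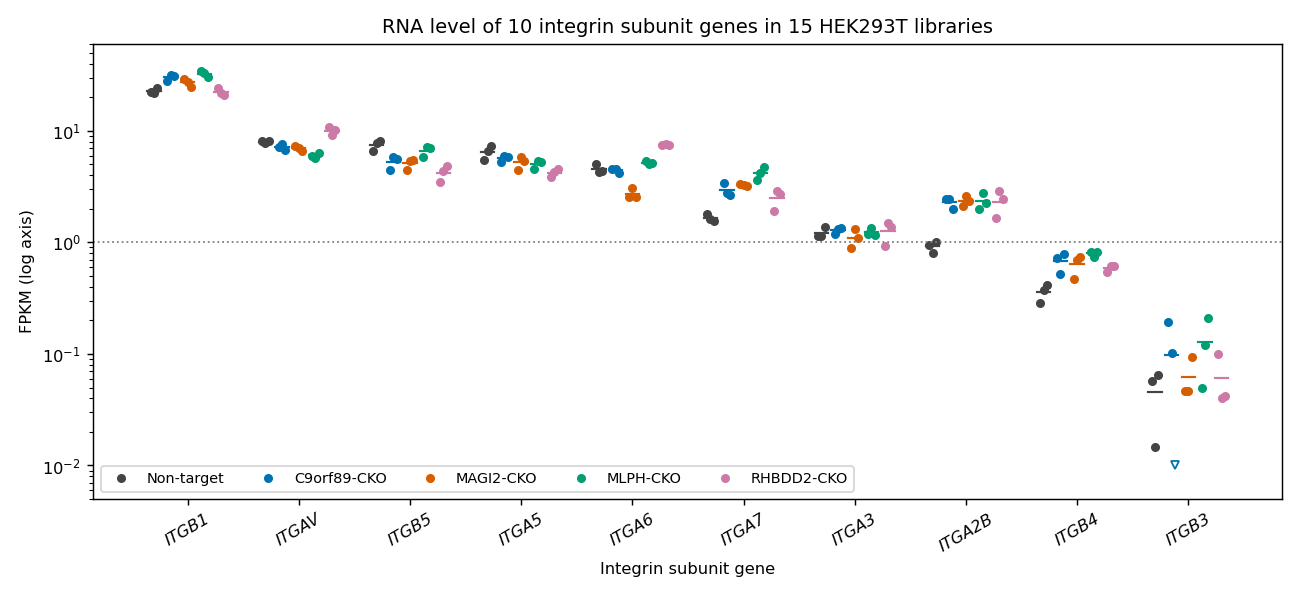
RNA level in FPKM (log axis) of the 10 integrin subunit genes in each of 15 libraries, 3 per group, with a short bar at each group mean and a dotted line at 1 FPKM. ITGA2B sits at or below 1.01 FPKM in the 3 Non-target libraries and at 1.64 or above in all 12 knockout libraries. The open triangle marks the single library listed at 0, of C9orf89-CKO for ITGB3, drawn at the bottom of the plot.

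A gene counts as past the threshold when its Benjamini-Hochberg adjusted p from limma, over all 16175 genes tested, is below 0.05. Of the 9 subunits that passed the filter (ITGB3 did not), 4 were higher and 1 lower in C9orf89-CKO, where 26.0% of all tested genes passed the threshold. In MAGI2-CKO 4 were higher and 2 lower against a background of 36.1%, in MLPH-CKO 4 and 2 against 30.1%, and in RHBDD2-CKO 5 and 2 against 34.1%. The libraries of clone and control did not overlap for 6, 7, 7 and 7 of the 9 subunits in the same order, beside 39.7%, 46.8%, 41.1% and 44.2% of all tested genes. As the subunits were chosen with these values known, nothing is read from these counts.

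Promoter sequence is shown for 3 subunits with unlike courses: ITGA2B, higher in every clone, ITGB5, lower in 3 of 4, and ITGA6, which moved both ways. The windows run from 250 bases before to 50 after the RefSeq start (GRCh38.p14, RefSeq), and capitals mark each match on either strand to 6 motifs searched, the GC box GGGCGG, the TATA box TATAAA, the GATA motif AGATAA, the AP-1 motif TGACTCA, the E-box CAGCTG and the ETS motif CCGGAA. The windows lie at chr17:44389600-44389899 (minus strand), chr3:124901369-124901668 (minus) and chr2:172427086-172427385 (plus).
ITGA2B: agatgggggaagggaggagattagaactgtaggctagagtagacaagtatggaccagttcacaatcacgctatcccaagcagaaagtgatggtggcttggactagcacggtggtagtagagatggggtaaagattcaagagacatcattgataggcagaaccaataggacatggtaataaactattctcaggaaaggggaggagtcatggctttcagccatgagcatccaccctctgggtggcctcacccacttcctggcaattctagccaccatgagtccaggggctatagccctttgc
ITGB5: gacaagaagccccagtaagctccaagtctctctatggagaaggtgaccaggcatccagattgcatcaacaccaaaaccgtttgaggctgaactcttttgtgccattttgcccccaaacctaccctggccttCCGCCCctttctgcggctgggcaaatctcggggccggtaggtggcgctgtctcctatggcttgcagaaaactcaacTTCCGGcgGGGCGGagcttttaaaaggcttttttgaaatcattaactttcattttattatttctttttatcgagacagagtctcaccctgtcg
ITGA6: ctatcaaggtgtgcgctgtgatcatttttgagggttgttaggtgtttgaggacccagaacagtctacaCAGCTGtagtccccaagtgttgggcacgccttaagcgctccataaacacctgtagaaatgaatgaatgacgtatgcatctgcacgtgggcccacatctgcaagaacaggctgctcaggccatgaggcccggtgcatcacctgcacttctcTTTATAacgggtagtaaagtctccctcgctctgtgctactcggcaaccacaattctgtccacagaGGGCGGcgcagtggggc
The RefSeq start of ITGA2B lies 144 bases upstream of the GENCODE start, so its window ends before the gene as placed by the coordinates given with its levels. The ITGA2B window held none of the 6 motifs, 49.7% G and C, and 2 CpG sites, with fewer in 11.0% of the 35116 windows. The ITGB5 window had the same G and C share with 11 CpG sites, 2 GC boxes and 1 ETS motif. The ITGA6 window held an E-box, a TATA box read on the opposite strand and a GC box downstream of the start. Of the 6 members with a window in the table, 4 had a GC box, against 45% of all windows, 2 an E-box (17.9%), 2 an ETS motif (17.2%), 1 a TATA box (11.5%), 1 an AP-1 motif (4.95%) and none the GATA motif (10.3%). These are matches of letters only. Among the 4 with a GC box, the RefSeq start of ITGB1 lies 47562 bases from its GENCODE start, and that of ITGA5 lies 194 bases from its own.

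ITGA2B (ENSG00000005961, chr17:44372180-44389505, minus strand) stood above the control by a like amount in all 4 clones. It was at 0.954, 0.803 and 1.01 FPKM in Non-target, at 2.44, 2.46 and 1.98 in C9orf89-CKO and at 2.13, 2.58 and 2.36 in MAGI2-CKO. In MLPH-CKO it was at 1.98, 2.78 and 2.26, and in RHBDD2-CKO at 1.64, 2.86 and 2.45. Every clone library lay above every control library, while the 4 clones overlapped each other throughout. The log2 fold changes of the 4 clones, on the log2(FPKM + 0.1) scale, were 1.23, 1.27, 1.25 and 1.21 (each ± 0.18, the SE of limma, a linear model that borrows spread across genes). Without the libraries numbered 1 they were 1.21, 1.36, 1.38 and 1.46, while adding 1 FPKM rather than 0.1 before the log gave 0.78, 0.80, 0.79 and 0.77. ITGB3 (ENSG00000259207, chr17:47253846-47311816, plus strand), the only known partner of ITGA2B, lies on the same chromosome and stayed between 0 and 0.211 FPKM, with 93 fragments over all 15 libraries. Of its 4394 exon bases 51.6% are shared with the read-through gene AC068234.1, which was listed at 0 in every library. In 1 library ITGB3 had no fragment, and a count of 0 allows up to 3. Counting over the unshared bases alone would raise its highest value to 0.436 FPKM.

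ITGA2B is a marker of megakaryocytes, the parents of platelets, and its level was set beside 9 other markers of that lineage. Of these, GP9, PPBP and TREML1 were at 0 in all libraries, and 2 reached 0.5 FPKM in any library. GP1BB was also listed at 0, but all of its 1553 exon bases are shared with SEPT5 and SEPT5-GP1BB, so that value is no measure of its RNA. The 9 summed to 0.403, 1.57 and 0.329 FPKM in Non-target, 1.63, 1.35 and 0.658 in C9orf89-CKO and 1.22, 1.12 and 1.16 in MAGI2-CKO. The sums were 0.684, 0.818 and 1.40 in MLPH-CKO and 1.28, 1.21 and 1.24 in RHBDD2-CKO, so the second control library lay among the clones. The most abundant, GP1BA, the alpha chain of a platelet receptor for von Willebrand factor, did not pass the threshold in any clone (log2 fold changes of 1.02 to 1.38, SE 0.51, adjusted p of 0.0509 to 0.166, limma). The other marker to reach that level, PF4 (platelet factor 4), had 0 to 9 fragments a library and log2 fold changes of -0.41, -1.04, -0.65 and 0.81 (± 0.88, adjusted p of 0.399 to 0.777). The part of such markers in the level of ITGA2B was not tested.

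The laminin-binding alpha subunits changed in their proportions. ITGA6 (ENSG00000091409, chr2:172427354-172506282, plus strand), alpha6 of laminin receptors, had the widest range of group means among the subunits that passed the filter, the highest being 2.76 times the lowest. It was at 4.997, 4.23 and 4.34 FPKM in Non-target, 4.58, 4.55 and 4.15 in C9orf89-CKO and 2.55, 3.09 and 2.56 in MAGI2-CKO. It was at 5.34, 5.04 and 5.16 in MLPH-CKO and at 7.53, 7.64 and 7.43 in RHBDD2-CKO. MAGI2-CKO lay under all other groups and RHBDD2-CKO above all, MLPH-CKO was just above Non-target, and C9orf89-CKO overlapped Non-target. Antisense genes share 5.37% of its exon bases, and none of them exceeded 0.185 FPKM. The log2 fold changes were -0.03, -0.71, 0.19 and 0.73 (± 0.08), and MAGI2-CKO differed from RHBDD2-CKO by -1.44 ± 0.08.

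ITGA7 (ENSG00000135424, chr12:55684568-55716043, minus strand) encodes alpha7, the main laminin-binding alpha subunit of skeletal muscle. It was at 1.79, 1.63 and 1.55 FPKM in Non-target, 3.39, 2.76 and 2.66 in C9orf89-CKO and 3.35, 3.24 and 3.20 in MAGI2-CKO. In MLPH-CKO it was at 3.60, 4.17 and 4.74, and in RHBDD2-CKO at 1.93, 2.88 and 2.71. All clone libraries exceeded all controls, MLPH-CKO stood above the other 3 clones without overlap, and the library numbered 1 of RHBDD2-CKO was closest to the control. The log2 fold changes were 0.79, 0.94, 1.28 and 0.55 (± 0.15), and the last was 0.78 without the libraries numbered 1.

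Markers of muscle were set beside ITGA7. Of 6 listed, 1 was at 0 in all libraries (MYOG, a regulator of muscle differentiation) and 4 reached 0.5 FPKM in any. Their sum was 1.16, 1.05 and 1.25 FPKM in Non-target, 1.98, 1.81 and 2.69 in C9orf89-CKO and 2.67, 3.46 and 3.42 in MAGI2-CKO. It was 1.75, 2.30 and 2.12 in MLPH-CKO and 1.69, 1.52 and 1.94 in RHBDD2-CKO, above the controls in every clone library, but highest in MAGI2-CKO where ITGA7 was highest in MLPH-CKO. Of the 6, 2 passed the filter. MYOD1, a transcription factor of the myogenic lineage and the most abundant of them, was at 0.230 to 2.00 FPKM. It passed the filter through clone libraries only, so a rise in some clone was built in. Its log2 fold changes were 1.61, 1.90, 1.32 and 0.21 (± 0.31, the SE of limma), largest in MAGI2-CKO. They are given as a description, without p-values. ACTA1, the actin of skeletal muscle, was at 0.0371 to 0.685 FPKM and passed the threshold in no clone (adjusted p of 0.195 to 0.851, limma). The part of these markers in the level of ITGA7 was not tested.

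ITGA3 (ENSG00000005884, chr17:50055968-50090481, plus strand), alpha3 of laminin receptors, was at 1.10 to 1.28 FPKM as a group mean and its 5 groups overlapped in the order of their means. Its log2 fold changes lay between -0.14 and 0.08 (± 0.17). As a share of the summed RNA of ITGA3, ITGA6 and ITGA7, ITGA6 made up 61.1% ± 1.74 in Non-target and 51.2% ± 1.39, 38.4% ± 1.73, 49.0% ± 3.24 and 66.9% ± 4.95 in the clones. ITGA7 made up 22.4% ± 1.01, 33.9% ± 2.72, 46.1% ± 3.51, 39.3% ± 3.65 and 22.0% ± 3.01. In MAGI2-CKO ITGA7 had the larger share in all 3 libraries, and in the other 4 groups ITGA6 did.

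ITGB4 (ENSG00000132470, chr17:75721328-75757818, plus strand), beta4, pairs with ITGA6 alone and anchors hemidesmosomes of epithelia to keratin filaments. It was at 0.286, 0.373 and 0.413 FPKM in Non-target, 0.726, 0.526 and 0.790 in C9orf89-CKO and 0.472, 0.694 and 0.743 in MAGI2-CKO. It was at 0.826, 0.746 and 0.815 in MLPH-CKO and at 0.546, 0.620 and 0.618 in RHBDD2-CKO. Each clone library was above each control library, though the lowest, of MAGI2-CKO, was close to the highest control. The log2 fold changes were 0.77, 0.68, 0.98 and 0.61 (± 0.20), from 31 to 102 fragments a library. Without the libraries numbered 1 they were 0.60, 0.73, 0.84 and 0.55, and those of C9orf89-CKO and RHBDD2-CKO did not pass the threshold. A pseudocount of 1 brought them to 0.31, 0.27, 0.40 and 0.23. The ratio of ITGA6 to ITGB4 was 13.1 ± 3.81 in Non-target and 6.74 ± 1.74, 4.43 ± 0.975, 6.52 ± 0.216 and 12.7 ± 0.958 in the clones. Of 7 markers of basal epithelium, KRT14 was at 0 in all libraries, and LAMA3, a laminin chain bound by this receptor, was the most abundant at 0.752 to 2.92 FPKM. Their sum was 2.56 ± 0.302 FPKM in Non-target and 3.22 ± 0.266, 1.40 ± 0.207, 2.80 ± 0.183 and 2.47 ± 0.0498 in the clones. It was thus lower than the control in MAGI2-CKO, where ITGB4 was higher. The part of these markers in the level of ITGB4 was not tested.

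Among the RGD receptors, ITGB5 (ENSG00000082781, chr3:124761948-124901418, minus strand), beta5 of the vitronectin receptor, was lower in 3 clones. It was at 6.66, 7.78 and 8.14 FPKM in Non-target, 4.47, 5.77 and 5.60 in C9orf89-CKO and 4.47, 5.35 and 5.50 in MAGI2-CKO. In MLPH-CKO it was at 5.85, 7.15 and 6.97, and in RHBDD2-CKO at 3.47, 4.33 and 4.83. C9orf89-CKO, MAGI2-CKO and RHBDD2-CKO lay under the controls without overlap, and MLPH-CKO overlapped them. On the log2 scale the changes were -0.51, -0.55, -0.18 and -0.83 (± 0.14). With the library number as a replicate block, where 38.9% of all tested genes passed in MLPH-CKO, ITGB5 passed the threshold there as well. It did not pass there without the libraries numbered 1 (-0.17 ± 0.07).

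ITGAV (ENSG00000138448, chr2:186590065-186680901, plus strand), the alpha partner of ITGB5, took another course. It was at 8.06, 7.74 and 8.10 FPKM in Non-target, 7.23, 7.65 and 6.71 in C9orf89-CKO and 7.31, 6.97 and 6.61 in MAGI2-CKO. It was at 5.96, 5.73 and 6.35 in MLPH-CKO and at 10.8, 9.18 and 10.1 in RHBDD2-CKO. RHBDD2-CKO lay above the controls and the other 3 clones below them, with no overlap in any case, and the log2 fold changes were -0.15, -0.19, -0.40 and 0.32 (± 0.07). The ratio of ITGB5 to ITGAV was 0.946 ± 0.103 in Non-target and 0.736 ± 0.109, 0.737 ± 0.113, 1.11 ± 0.132 and 0.424 ± 0.0886 in the clones. It ranged from 0.322 to 0.478 in the RHBDD2-CKO libraries and from 0.826 to 1.01 in those of Non-target.

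ITGA5 (ENSG00000161638, chr12:54395261-54419460, minus strand), alpha5 of the classical fibronectin receptor, declined in the order of the group means from Non-target over C9orf89-CKO, MAGI2-CKO and MLPH-CKO to RHBDD2-CKO, each overlapping the next. It was at 5.42, 6.62 and 7.33 FPKM in Non-target and at 3.84, 4.28 and 4.55 in RHBDD2-CKO. MLPH-CKO, at 4.51, 5.33 and 5.28, also lay under the controls, and the other 2 clones overlapped them. On the log2 scale the changes were -0.18, -0.30, -0.34 and -0.59 (± 0.12). Without the libraries numbered 1 they were -0.24, -0.32, -0.39 and -0.65 (± 0.07), so that ITGA5 passed the threshold in all 4 clones and not in MLPH-CKO and RHBDD2-CKO alone. The remaining libraries of C9orf89-CKO and MAGI2-CKO then lay under those of Non-target, in a fit where 32.4%, 40.4%, 36.9% and 42.0% of all tested genes passed. Set against ITGAV, its ratio was 0.811 ± 0.122 in Non-target and 0.424 ± 0.0592 in RHBDD2-CKO.

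ITGB1 (ENSG00000150093, chr10:32900319-33005792, minus strand), the beta subunit of most pairs here, was at 22.3, 21.6 and 24.02 FPKM in Non-target, 27.9, 31.9 and 31.0 in C9orf89-CKO and 29.03, 27.4 and 24.9 in MAGI2-CKO. In MLPH-CKO it was at 34.3, 33.1 and 30.2, and in RHBDD2-CKO at 24.3, 21.7 and 21.1. The first 3 clones lay above the controls and RHBDD2-CKO overlapped them. The log2 fold changes were 0.42, 0.26, 0.52 and -0.02 (± 0.08), and that of MAGI2-CKO was 0.20 ± 0.07 and not past the threshold without the libraries numbered 1. The summed level of the 12 alpha subunits that can pair with ITGB1 was 28.4 ± 0.780 FPKM in Non-target and 30.5 ± 0.682, 24.3 ± 1.10, 30.5 ± 1.58 and 33.5 ± 0.947 in the clones. The ratio of ITGB1 to that sum was 0.797 ± 0.0213 in Non-target, and 0.994 ± 0.0701, 1.12 ± 0.106, 1.07 ± 0.123 and 0.668 ± 0.0699 in the clones, so that RHBDD2-CKO alone lay below the control.

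**Figure D2:**
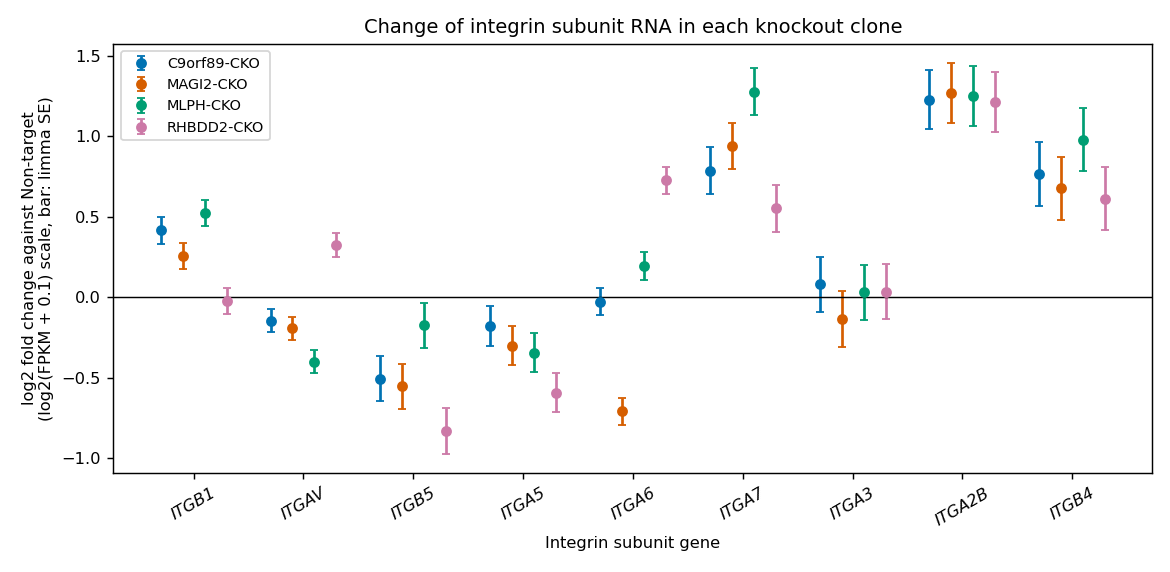
Log2 fold change of 9 integrin subunit genes in each knockout clone against Non-target, on the log2(FPKM + 0.1) scale, with the limma SE as bars. ITGA2B, ITGA7 and ITGB4 lie above 0 in all 4 clones, and ITGA6 ranges from -0.71 in MAGI2-CKO to 0.73 in RHBDD2-CKO. ITGB3 was under the filter on low values and has no fold change.

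Which receptors could be built was read from the RNA of both subunits, where a pair counts when both reached 1 FPKM in all 3 libraries of a group. RNA does not show protein or its place at the surface. Of 24 known human pairs, 9 had RNA in Non-target, C9orf89-CKO and MLPH-CKO and 8 in MAGI2-CKO and RHBDD2-CKO. These counts depend on the minimum, and at 2 FPKM they were 5 in Non-target and 7, 5, 7 and 6 in the clones. Of the 9 pairs made only from the 10 subunits, 6 counted in the first 3 of these groups and 5 in the other 2. At 1 FPKM the pair that differed was ITGA3-ITGB1, where ITGA3 was at 0.893 FPKM in a single library of MAGI2-CKO and at 0.921 in a single library of RHBDD2-CKO, both numbered 1, while its group means were 1.10 and 1.26. The pairs ITGA5-ITGB1, ITGA6-ITGB1, ITGA7-ITGB1, ITGAV-ITGB1 and ITGAV-ITGB5 counted in all 5 groups. ITGA2B-ITGB3, ITGAV-ITGB3 and ITGA6-ITGB4 counted in none, as neither ITGB3 nor ITGB4 reached 1 FPKM in any library, and ITGA2B itself was under it in 2 libraries of Non-target.

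The scarcer subunit sets an upper limit on a pair, as far as RNA goes. For ITGAV-ITGB5 it was ITGB5 in every library of all clones but MLPH-CKO (5.28 ± 0.706, 5.11 ± 0.558 and 4.21 ± 0.691 FPKM in their order). In Non-target and MLPH-CKO both subunits were close, and which was scarcer differed between libraries, ITGB5 in the library numbered 1 of each and ITGAV in the other 2. With ITGB1 each alpha subunit, taken alone, was scarcer in every group. This measure leaves out that subunits are shared. The ratio of ITGB1 to the sum of its 12 alpha partners was 0.797 in Non-target, 0.668 in RHBDD2-CKO and 0.994 to 1.12 in the other clones. ITGAV is also shared between ITGB1 and ITGB5. The order of pairs is thus one of single subunits and not of receptors. The most abundant ITGB1 pair by this measure was ITGAV-ITGB1 in all 5 groups, and the next was ITGA5-ITGB1 in Non-target, C9orf89-CKO and MAGI2-CKO and ITGA6-ITGB1 in MLPH-CKO and RHBDD2-CKO. In MLPH-CKO the means of ITGA6 and ITGA5 were 5.18 and 5.04 FPKM and their libraries overlapped, whereas in RHBDD2-CKO they were 7.53 and 4.22 and did not.

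**Figure D3:**
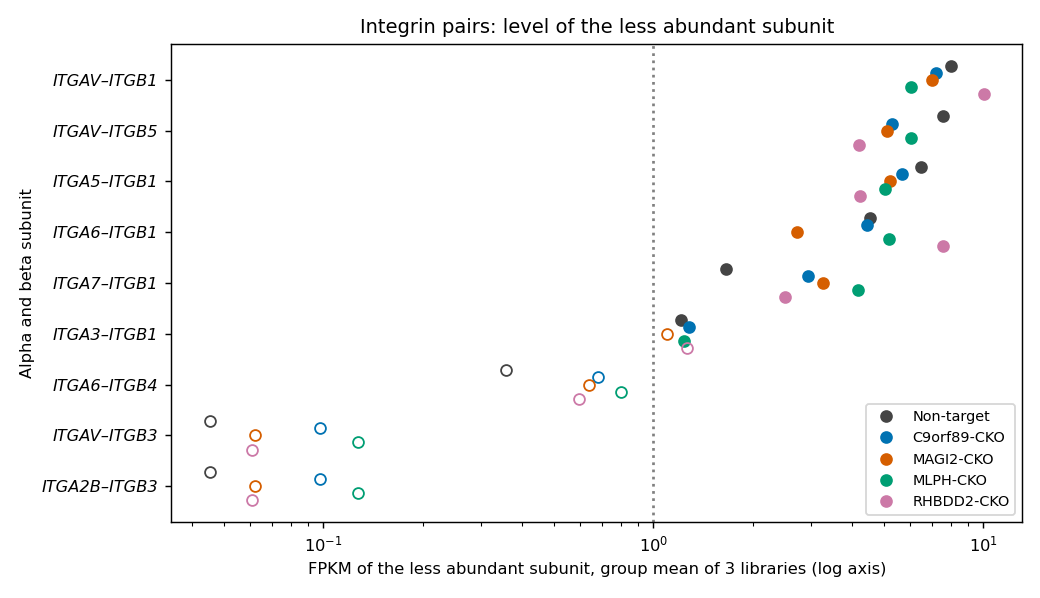
Group mean FPKM (log axis) of the less abundant subunit of each of the 9 pairs made from the listed genes, for 5 groups of 3 libraries. Filled points mark pairs with both subunits at 1 FPKM or above in all 3 libraries, and the dotted line marks 1 FPKM. The 2 pairs with ITGB3 stay at or below 0.127 FPKM.

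The other 16 subunit genes are what the choice of the 10 left over, so their counts are a description too, and p-values for single genes are adjusted over all genes tested. Of the 7 that passed the filter, 1, 1, 4 and 2 rose and 0, 2, 1 and 2 fell in the 4 clones, beside the 26.0%, 36.1%, 30.1% and 34.1% of all tested genes that passed. These counts hold ITGB2, which passed the filter only through MAGI2-CKO, where it rose. Its rise in MLPH-CKO (adjusted p = 0.0377, limma) was lost in a fit of all genes with any fragment (0.0617). The counts also hold ITGA9, which passed only through 2 libraries of Non-target and 1 of C9orf89-CKO, so a fall elsewhere was built in. ITGA9 is the 1 fall of MLPH-CKO, and its log2 fold changes in MAGI2-CKO, MLPH-CKO and RHBDD2-CKO were -1.332, -0.866 and -1.465. In the unfiltered fit their adjusted p was 0.00140, 0.0255 and 0.000866. Among the 4 with a group mean of 1 FPKM or more, ITGA8, alpha8 that pairs with ITGB1 and binds nephronectin in the developing kidney, moved most. It was at 1.33, 1.35 and 1.45 FPKM in Non-target, 3.22, 3.02 and 3.01 in C9orf89-CKO and 2.77, 3.02 and 3.14 in RHBDD2-CKO. MLPH-CKO, at 2.34, 2.19 and 2.13, lay between them, and MAGI2-CKO, at 1.25, 1.30 and 1.32, lay just under the control. ITGA8 rose by a log2 of 1.11 ± 0.08 in C9orf89-CKO (adjusted p = 5.21e-07, limma), 1.06 in RHBDD2-CKO (adjusted p = 7.34e-07) and 0.65 in MLPH-CKO (adjusted p = 4.49e-05), and its change in MAGI2-CKO was -0.09 (adjusted p = 0.409).

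ITGA4, alpha4 of a receptor for VCAM1 and fibronectin, rose in MLPH-CKO (0.53 ± 0.11, adjusted p = 0.00363, limma) and fell in MAGI2-CKO (-0.59, adjusted p = 0.00133). In RHBDD2-CKO its change of -0.33 had an adjusted p of 0.0391, which rose to as much as 0.126 when any of 6 single libraries (Non-target 1 or 2, MAGI2-CKO 2, or RHBDD2-CKO 1, 2 or 3) was left out, and to 0.184 without all libraries numbered 1. ITGA2, alpha2 of a collagen receptor, rose in RHBDD2-CKO (0.59 ± 0.13, adjusted p = 0.00297), from 1.57 ± 0.294 to 2.39 ± 0.113 FPKM, and its adjusted p was 0.191 to 0.678 in the other clones. Without Non-target 2 it passed as lower in MAGI2-CKO (-0.37, adjusted p = 0.0203, limma). ITGAE, alphaE, which pairs with ITGB7, was at 3.46 to 4.26 FPKM as a group mean and passed in no clone (adjusted p of 0.113 to 0.738), and ITGB7, with 42.1% of its exon bases shared with ZNF740, did not exceed 0.103 FPKM. With ITGB1, the pairs of ITGA2, ITGA4 and ITGA8 counted in all 5 groups.

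Adaptor proteins link the short tails of beta subunits to actin and set integrin affinity. Their list, and those of ligands and membrane partners below, were chosen with earlier results of these data known. The counts and p-values of these lists are therefore a description. Of 32 such genes 26 passed the filter, and in the 4 clones 4, 6, 4 and 2 rose and 7, 7, 7 and 11 fell, beside 12.9%, 17.0%, 14.5% and 17.4% of all tested genes that rose and 13.1%, 19.1%, 15.5% and 16.7% that fell. Their median log2 fold change was -0.07, 0.06, -0.10 and -0.21, where that of all genes was within 0.01 of 0. PARVB and FLNA fell in all 4 clones. So did FERMT1, but it passed the filter only through Non-target, so its part in these counts of falls was built in.

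FERMT1 (kindlin-1), which binds beta tails and helps to activate integrins, fell from 1.04 ± 0.108 FPKM in Non-target to between 0.237 ± 0.0206 and 0.355 ± 0.139, with log2 fold changes of -1.41, -1.75, -1.36 and -1.62 (± 0.23, adjusted p from 6.05e-05 to 0.000636, limma). FERMT1 passed the filter only through Non-target, where it is high, so a fall was the only change it could show there, and in a fit of all genes with any fragment its adjusted p ran from 0.000122 to 0.00119. PARVB (beta-parvin), of the complex of integrin-linked kinase, fell from 8.08 ± 0.682 FPKM to 5.35 ± 0.0730, 4.26 ± 0.231, 3.54 ± 0.176 and 6.22 ± 0.144, and its adjusted p ran from 1.30e-07 to 0.00142. FLNA (filamin A), an actin crosslinker that competes with talin for beta tails, fell from 95.6 ± 9.81 FPKM to 28.7 ± 3.86 in RHBDD2-CKO (log2 fold change -1.74 ± 0.14, adjusted p = 1.54e-06). Its change was -0.80 in C9orf89-CKO (adjusted p = 0.000967), and in both MLPH-CKO and MAGI2-CKO it was -0.50 (adjusted p = 0.0145 and 0.0131). These last 2 missed the threshold, with adjusted p of up to 0.0581 and 0.0558, when Non-target 3 or the clone's own library 1 was left out, and that of MLPH-CKO also after quantile normalization (0.0514). ZYX (zyxin), a focal adhesion protein, fell in RHBDD2-CKO from 40.3 ± 3.52 to 19.3 ± 2.46 FPKM (-1.06 ± 0.13, adjusted p = 5.18e-05), and its change was -0.02, 0.30 and 0.11 in the other clones (adjusted p of 0.934, 0.0863 and 0.569). Without MAGI2-CKO 1 it passed as higher in MAGI2-CKO (0.43, adjusted p = 0.0220, limma). TGFB1I1 (Hic-5), a paxillin relative, rose in MAGI2-CKO (1.22 ± 0.20, adjusted p = 0.000467) and MLPH-CKO (1.16, adjusted p = 0.000943), and in C9orf89-CKO by 0.67 (adjusted p = 0.0276, up to 0.1 when Non-target 1 or 3 or C9orf89-CKO 2 or 3 was left out, and 0.143 with only the 6 libraries compared in the fit).

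Of 33 genes for integrin ligands 21 passed the filter. In the same order of clones 4, 2, 3 and 1 rose and 10, 12, 7 and 12 fell, beside the same shares of all tested genes (12.9%, 17.0%, 14.5% and 17.4% that rose, 13.1%, 19.1%, 15.5% and 16.7% that fell). Their median log2 fold change was -0.22, -0.45, -0.24 and -0.29. Fallen in all 4 clones were LAMB1 and LAMC1, chains of laminins bound by ITGA3, ITGA6 and ITGA7 with ITGB1, NID1 (nidogen-1), which bridges laminin and collagen IV, TNC (tenascin-C) and LTBP1, a latent TGF-beta binding protein. LAMC1 was at 41.8 ± 2.20 FPKM in Non-target and at 33.7 ± 1.18, 27.8 ± 1.66, 30.7 ± 2.89 and 35.5 ± 1.70 in the clones. NID1 was at 60.8 ± 3.67 FPKM in Non-target and at 41.9 ± 1.75, 38.6 ± 2.08, 51.2 ± 5.56 and 31.7 ± 1.71. TNC, at 0.544 ± 0.00570 FPKM in Non-target, was between 0.0669 ± 0.00866 and 0.125 ± 0.0381 in the clones. TNC too passed the filter only through Non-target, so its part in the counts of ligands that fell was built in. In the unfiltered fit its adjusted p was 6.79e-05 to 0.000442. The adjusted p of LAMB1 was 2.81e-05 to 0.0232, of LAMC1 5.88e-05 to 0.0296, of NID1 3.19e-06 to 0.0336, of TNC 0.000569 to 0.00289 and of LTBP1 0.000891 to 0.0124. The calls of LAMB1 in C9orf89-CKO (adjusted p up to 0.0804, without Non-target 2 or 3 or any library of the clone) and MLPH-CKO (0.0519, Non-target 3 or MLPH-CKO 1), of LAMC1 in RHBDD2-CKO (0.111, Non-target 1 or 3 or RHBDD2-CKO 1 or 2) and of NID1 in MLPH-CKO (0.129, Non-target 2 or 3 or MLPH-CKO 1) were lost without single libraries. Other settings ended calls as well. After quantile normalization the adjusted p of LAMC1 was 0.0901 in C9orf89-CKO and 0.315 in RHBDD2-CKO, and that of NID1 in MLPH-CKO was 0.202. With voom on fragment counts LAMB1 was at 0.0934 in C9orf89-CKO and 0.0578 in MLPH-CKO, LAMC1 in RHBDD2-CKO at 0.155 and NID1 in MLPH-CKO at 0.0931. With only the 6 libraries compared in the fit, LTBP1 in MLPH-CKO was at 0.0628, LAMB1 there at 0.0517 and NID1 there at 0.124.

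FN1 (fibronectin), the ligand of ITGA5-ITGB1, was at 4.27 ± 0.408 FPKM in Non-target. It fell to 1.63 ± 0.189 in RHBDD2-CKO (log2 fold change -1.33 ± 0.11, adjusted p = 1.79e-06, limma), 2.08 ± 0.142 in C9orf89-CKO (adjusted p = 2.69e-05) and 2.49 ± 0.287 in MLPH-CKO (adjusted p = 0.000205), and its change in MAGI2-CKO was -0.26 (adjusted p = 0.0745). NPNT (nephronectin), the ligand of ITGA8-ITGB1, was at 0.886, 0.940 and 0.904 FPKM in Non-target, 1.495, 1.598 and 1.92 in C9orf89-CKO and 2.66, 2.44 and 2.46 in RHBDD2-CKO. It rose in these 2 clones (0.80 ± 0.17, adjusted p = 0.00414, and 1.37, adjusted p = 6.22e-05), fell in MAGI2-CKO to 0.297 ± 0.106 FPKM (-1.38, adjusted p = 4.72e-05) and was at 0.781 ± 0.0667 in MLPH-CKO (-0.20, adjusted p = 0.430). EDIL3, an RGD protein bound by ITGAV receptors, fell from 1.89 ± 0.385 FPKM to 0.0164 ± 0.0200 in C9orf89-CKO (adjusted p = 6.16e-08), to 0.896 ± 0.0894 in MAGI2-CKO (adjusted p = 0.00371, but 0.101 with a pseudocount of 0.01) and, with an adjusted p of 1.08e-06, to 0.166 ± 0.0689 in MLPH-CKO, and was at 1.77 ± 0.0503 in RHBDD2-CKO (adjusted p = 0.842). COL4A2, a collagen IV chain, fell most in RHBDD2-CKO, from 7.59 ± 0.151 to 1.92 ± 0.0912 FPKM (adjusted p = 3.28e-09), and LAMA3, the laminin alpha chain of hemidesmosomes, in MAGI2-CKO, from 2.16 ± 0.245 to 0.834 ± 0.108 (adjusted p = 2.00e-06). LAMA3 was higher in C9orf89-CKO (0.33 ± 0.11, adjusted p = 0.0373), a call lost, with an adjusted p of up to 0.150, without Non-target 2 or 3 or C9orf89-CKO 1 or 2. TGFB1, whose latent form is bound by ITGAV receptors, rose in C9orf89-CKO from 8.31 ± 1.92 to 15.8 ± 2.96 FPKM (adjusted p = 0.00515) and in MLPH-CKO to 15.8 ± 1.97 (adjusted p = 0.00411).

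All 10 listed membrane partners of integrins passed the filter, and 0, 0, 1 and 1 rose and 3, 4, 4 and 2 fell, where 26.0%, 36.1%, 30.1% and 34.1% of all tested genes changed. CD151, a tetraspanin that holds ITGA3-ITGB1 and ITGA6-ITGB1 in the membrane, fell in all 4 clones. It was at 27.2, 30.6 and 29.9 FPKM in Non-target and at group means of 19.7 ± 1.75, 21.2 ± 2.00, 18.1 ± 1.497 and 22.0 ± 0.773, with log2 fold changes of -0.57, -0.46, -0.69 and -0.41 (± 0.09, adjusted p from 8.03e-05 to 0.00326, limma), and no clone library reached the controls. CD47, a partner of ITGAV receptors, fell most in MAGI2-CKO (-0.63 ± 0.08, adjusted p = 4.35e-05), and by -0.34 in both MLPH-CKO (adjusted p = 0.00528) and C9orf89-CKO (adjusted p = 0.00646). In RHBDD2-CKO, where ITGAV was highest, CD47 rose from 7.72 ± 0.386 to 9.42 ± 0.539 FPKM (adjusted p = 0.0125, and 0.0522 without RHBDD2-CKO 3). CD9, another tetraspanin, fell in MAGI2-CKO to 7.23 ± 1.03 FPKM from 11.7 ± 1.16 (adjusted p = 0.00111). SLC3A2, which binds beta tails, fell in C9orf89-CKO (-0.44 ± 0.08, adjusted p = 0.00200) and MLPH-CKO (-0.35, adjusted p = 0.00672). Its call in RHBDD2-CKO (adjusted p = 0.0298) was lost, up to 0.123, without Non-target 2 or 3 or RHBDD2-CKO 1 or 3, and reached 0.350 after quantile normalization. CD81, a tetraspanin, was at 40.0 ± 5.78 FPKM in Non-target and at 33.3 ± 5.35, 32.7 ± 3.52, 29.01 ± 1.78 and 31.9 ± 2.97 in the clones. It passed in MLPH-CKO (-0.46 ± 0.13, adjusted p = 0.0205, up to 0.0870 without Non-target 2 or 3 or MLPH-CKO 1), and its adjusted p in the others was 0.0801 to 0.160, falling to 0.0421 in MAGI2-CKO without Non-target 1 and to 0.0305 in RHBDD2-CKO without Non-target 1 or C9orf89-CKO 1. CAV1 (caveolin-1) rose in MLPH-CKO (0.42 ± 0.09, adjusted p = 0.00365) and fell in MAGI2-CKO (-0.42, adjusted p = 0.00277).

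**Figure D4:**
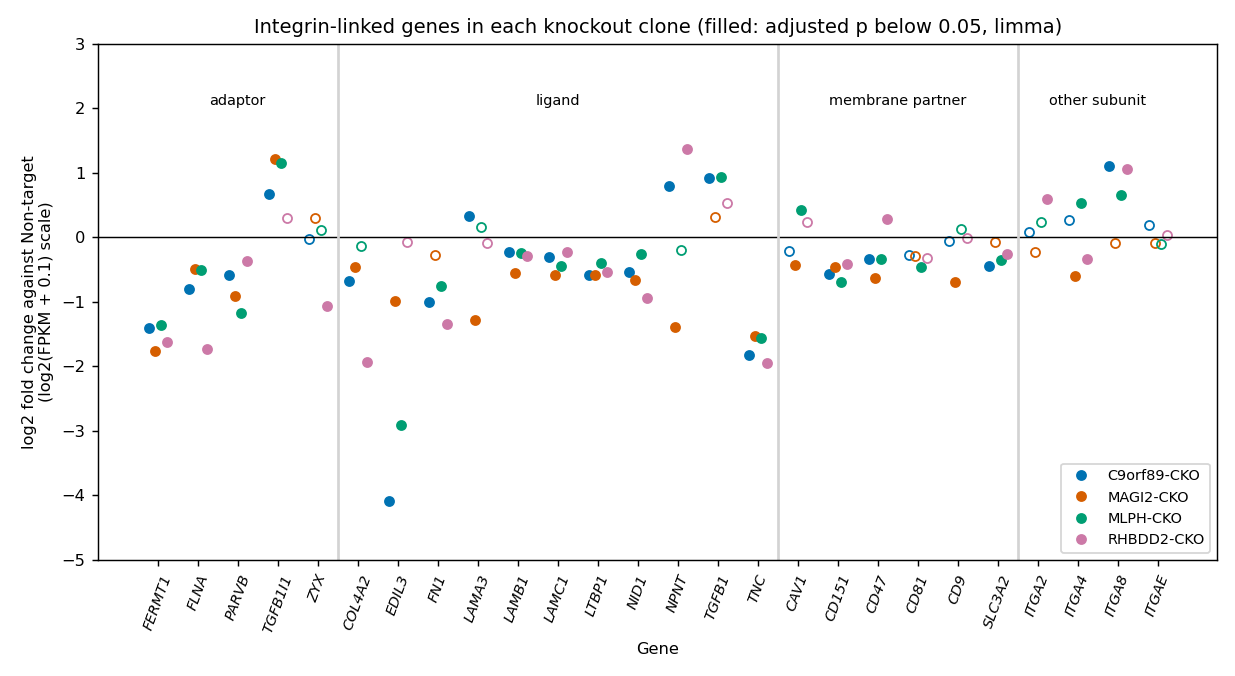
Log2 fold change against Non-target, on the log2(FPKM + 0.1) scale, of the named adaptor, ligand, membrane partner and other subunit genes in each knockout clone, as points coloured by clone. Filled points passed an adjusted p of 0.05 (limma) and open points did not. CD151, FLNA and PARVB are below 0 and filled in all 4 clones, and NPNT ranges from -1.38 in MAGI2-CKO to 1.37 in RHBDD2-CKO.

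The position of the integrin genes was set beside their changes, using the 100 tested genes nearest to each. Around ITGA2B, within 1.89 Mb on chromosome 17, the median log2 fold change of these neighbours was 0.42, 0.47, 0.49 and 0.29 in the 4 clones, and 56, 64, 59 and 30 of them were higher. ITGA2B itself was at 1.21 to 1.27, above the upper quartile of its neighbours in each clone (0.78, 0.84, 0.85 and 0.56). Over the 10 nearest genes alone the medians were 0.30, 0.41, 0.42 and 0.02. Around ITGB1 on chromosome 10, within 13.2 Mb, the medians were 0.40, 0.32, 0.31 and 0.09, close to the values of ITGB1 in C9orf89-CKO and MAGI2-CKO (0.42 and 0.26), and over the 10 nearest they were 0.39, 0.26, 0.11 and -0.06. Around ITGB5 on chromosome 3 the median was -0.45 in RHBDD2-CKO, with 55 of 100 genes lower, and between -0.04 and -0.03 in the other clones. ITGB5 itself lay below the lower quartile of its neighbours in C9orf89-CKO (-0.51 against -0.24), MAGI2-CKO (-0.55 against -0.22) and RHBDD2-CKO (-0.83 against -0.66). Around ITGA6 the medians were 0.01, -0.11, 0.06 and -0.00 and around ITGA7 0.16, 0.16, 0.09 and 0.03. ITGA6 in MAGI2-CKO and RHBDD2-CKO and ITGA7 in all 4 clones were outside the quartiles of their neighbours. Copy number was not measured, and its part in these changes was not tested.

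**Figure D5:**
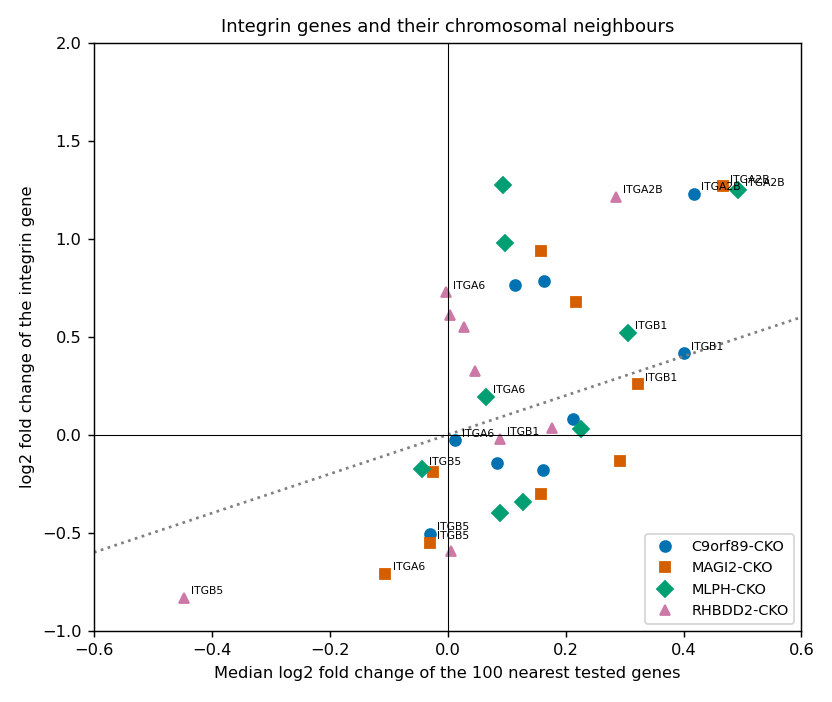
Log2 fold change against Non-target of each tested integrin subunit gene (vertical axis) against the median of the 100 tested genes nearest to it on its chromosome (horizontal axis), with points by clone and the dotted line where both are equal. ITGB1 lies near the line in C9orf89-CKO and MAGI2-CKO, and ITGA2B lies above it in all 4 clones.

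The genes most like each subunit were found by Pearson r of log2(FPKM + 0.1) over the 15 libraries, which share 5 clones and a library effect, so r is a description. Nearest to ITGA2B were GBF1 (r = 0.964) and ATP6V0A1 (0.953), the latter on chromosome 17 at a distance of 1.91 Mb. ITGB1 was nearest to DDX50 (0.952) and ANXA7 (0.949), both on chromosome 10 at 36.0 and 40.5 Mb. ITGB5 was nearest to NID1 (0.955) and to the transcription factor GATA6 (0.950), whose group mean went from 14.9 FPKM in Non-target to 4.56 in RHBDD2-CKO. ITGA6 was nearest to DOCK4 (0.965) and ARNTL2, ITGA7 to AOC3 (0.943), ITGAV to BLOC1S5 (0.958) and ZNF561, ITGA5 to PLXNA1 (0.953) and CACNA1H, and ITGB4 to RIMBP3 (0.951) and SSU72. ITGA3, which varied least, had no gene above 0.814 (UBA1). Among the subunits themselves the highest were ITGA2B with ITGA7 (0.828), ITGA5 with ITGB5 (0.805) and ITGA7 with ITGB4 (0.803), and the lowest was ITGAV with ITGB1 (-0.756).

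The cells carried the markers listed for HEK293T, all 6 of which reached 0.5 FPKM, led by VIM at 40.1 to 87.9 FPKM. They differed between the clones all the same. Their values had been seen before, so the changes and p-values of all 6 are a description. CDH2 (N-cadherin) fell in all 4 clones, by log2 changes of -0.65, -0.65, -0.52 and -0.49 (± 0.05, adjusted p of 5.84e-07 to 8.85e-06, limma). VIM (vimentin) rose by 0.60, 0.61 and 0.86 in the clones of C9orf89, MAGI2 and MLPH (± 0.12, adjusted p of 0.000151 to 0.00233), which are those where ITGB1 was higher, and its change was 0.06 in RHBDD2-CKO (adjusted p = 0.738). KRT8 (keratin 8) rose by 1.57 in MLPH-CKO (± 0.10, adjusted p = 2.10e-07) and fell in C9orf89-CKO (-0.93, adjusted p = 2.51e-05) and MAGI2-CKO (-0.45, adjusted p = 0.00357). LIN28B rose in C9orf89-CKO (0.39 ± 0.07, adjusted p = 0.00215, limma) and passed in no other clone. PAX2 and KRT18 rose in MLPH-CKO (0.70 ± 0.19 and 0.42 ± 0.12, adjusted p = 0.0156 and 0.0172) and passed in no other clone. The part of these differences in the levels of the subunits was not tested. Markers of blood cells were near 0. The 8 of myeloid cells summed to at most 0.629 FPKM, and PTPRC, which marks all leukocytes, did not exceed 0.00597. The 7 mesenchymal markers summed to 3.09 to 5.86 FPKM, led by COL1A1, which is also in the list of ligands. The 2 that passed the filter, both collagen chains, went opposite ways. COL1A1 rose in 3 clones (0.74, 0.93 and 0.83, ± 0.17, adjusted p of 0.00110 to 0.00739, limma) and had an adjusted p of 0.0939 in RHBDD2-CKO. COL3A1 fell in all 4 (-2.59, -1.60, -2.46 and -2.18, ± 0.27, adjusted p of 2.33e-05 to 0.000571), but passed the filter only through Non-target, and in the unfiltered fit its adjusted p was 3.25e-05 to 0.00085.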

How the data were processed

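RNA was extracted with the RNeasy kit, made into libraries with the NEBNext Ultra RNA kit and sequenced on an Illumina NovaSeq instrument. The deposited values are FPKM per gene for each library. The submitters' processing notes name HISAT2 2.0.5, featureCounts 1.5.0-p3 and DESeq2, and the genome build and the use of strand are not given in the sources used here. The unit was inferred from the values. Multiplied by the exon length of GENCODE 29 and divided by 1 step fitted per library, 100% of them were whole numbers of fragments within 0.01. This shows fragments over exon length, but it would hold for any scale with 1 factor per library.

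Log2(FPKM + 0.1) of 16175 genes with at least 0.5 FPKM in 3 libraries was fitted with limma 3.58.1 in R 4.3.3 with 5 group means over all 15 libraries, tested on simulated data first, and p-values were adjusted by Benjamini-Hochberg with a threshold of 0.05. Members and gene lists were chosen with earlier results of these data known. Named were the 10 subunits, other subunits with a group mean of 1 FPKM, genes of a list past the threshold in the same direction in all 4 clones or among the 3 largest changes of a clone, and the 2 genes most like each subunit. Alternatives were other pseudocounts, filters, scalings and samples. The fit without the libraries numbered 1 and voom on recovered fragments were chosen after seeing the data. Promoter windows came from RefSeq (GRCh38.p14).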

Additional observations from a re-analysis of the deposited data

How the results depend on the processing

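No fold change past the threshold, of a subunit or a named gene, reversed under the alternatives. Of the subunits' fold changes under the alternatives, 878 moved by less than the spread between libraries and 18 by more, all of ITGA2B, ITGA6, ITGA7 and ITGB4. When each library was left out in turn, 4 to 5, 4 to 7, 5 to 7 and 6 to 7 subunits passed the threshold in the clones of C9orf89, MAGI2, MLPH and RHBDD2, and 24 to 30, 31 to 35, 25 to 35 and 26 to 34 genes linked to integrins, beside 20.3 to 27.0%, 29.4 to 36.9%, 24 to 31.1% and 26.4 to 34.9% of all tested genes. Of 74 calls of named genes, 62 held without each library in turn and 59 under all alternatives, including quantile normalization and voom. With a minimum of 2 FPKM in place of 1, 5 pairs had RNA in Non-target and 7, 5, 7 and 6 in the clones. Libraries with the same number correlated weakly (median r of 0.0856, lowest 0.00103), though 12 of 15 were closest to their own number and those numbered 1 moved together (median r of 0.212, lowest 0.128), and nothing in the labels pairs them. With the number as a replicate block 6, 8, 7 and 7 subunits and 37, 41, 39 and 42 linked genes passed, as did 35.4%, 44.3%, 38.9% and 43.5% of all tested genes. The subunit calls gained were ITGA5 in C9orf89-CKO and MAGI2-CKO, ITGAV in MAGI2-CKO and ITGB5 in MLPH-CKO, and none was lost. Depth limits ITGB3, with 0 to 17 fragments a library, and ITGB4, with 31 to 102.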
